A study of Mus musculus with 2 samples.

Results

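*Chl1*, the gene for close homolog of L1, was described across the cell types of the mouse temporomandibular joint (TMJ) in single-cell RNA libraries, as 1 of the 32285 genes counted in each library. It was chosen by its measured pattern: a high level in some glia of both libraries, and a level in fibroblasts that differed between the libraries. Its levels by cell type and library are therefore a description with no test. Of the barcodes kept (at least 500 genes, at most 10% mitochondrial and at most 1% hemoglobin molecules), 108 of 2667 from PBS joints and 217 of 4014 from CFA joints held at least 1 *Chl1* molecule. A narrower set, named gated fibroblasts below, was all kept cells with at least 3 molecules of *Dcn* and at least 3 of *Dpt*, *Clec3b* and *Col14a1* together. It held 524 PBS and 396 CFA cells, of which 9 and 118 held *Chl1*.

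The mice were female wild-type C57BL/6 animals, given bilateral TMJ injections at 8 weeks of age and killed 3 weeks later, while the labels give their age as 8 to 10 weeks. One group received PBS, and the other received complete Freund's adjuvant (CFA), an emulsion of killed mycobacteria in oil that provokes arthritis (10 µL at 5 mg/mL). The bone, disc, muscle and ligament of the joint were digested as 1 sample and CD45+ leukocytes were depleted on magnetic beads, so shares of cell types were set in part by dissection and depletion. Each group was 1 library, the number of mice in it cannot be read from the barcodes, and no test between groups was possible.

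CHL1 is a transmembrane adhesion molecule of the immunoglobulin superfamily. With L1CAM, NRCAM and neurofascin it makes up the L1 family, whose members bind one another, integrins, neuropilin and plexin receptors on the outside of the cell, and ankyrin and ezrin-type linkers on the inside. The family is best known from axon growth, neuronal migration and the contact of glia with axons, and the CHL1 ectodomain can be released by proteases such as BACE1. In peripheral nerve, myelinating Schwann cells wrap single large axons, whereas nonmyelinating Schwann cells hold bundles of small axons, many of them sensory. Fibroblasts marked by *Pi16* and *Dpp4* lie in the adventitia around vessels of many tissues.

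*Chl1* (ENSMUSG00000030077) spans chromosome 6, bases 103510586 to 103750211 of GRCm38 on the plus strand, 239626 bases in the GENCODE vM21 annotation. Its transcript Chl1-201 has 27 exons and 7562 bases. Of 6 small genes annotated inside this span, 5 lie on the same strand, and 0 have a row of their own in the count tables. The 250 bases before the RefSeq start (GRCm38.p6) are given for *Chl1* and for 2 genes that were among the 12 highest in the fibroblasts that held it, *Saa3*, an acute-phase serum amyloid A, and *Mmp3*, the matrix metalloproteinase stromelysin. Each is written 5′ to 3′ on the strand of its gene. Capitals mark the 8 CG pairs in *Chl1*, and matches to the motifs that follow in the others.
Chl1, chr6:103510626-103510875, plus strand: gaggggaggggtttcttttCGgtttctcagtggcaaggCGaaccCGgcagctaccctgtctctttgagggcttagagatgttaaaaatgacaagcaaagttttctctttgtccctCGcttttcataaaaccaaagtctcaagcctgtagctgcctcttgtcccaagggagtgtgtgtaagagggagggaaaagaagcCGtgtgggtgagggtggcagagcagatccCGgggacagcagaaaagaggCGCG
Saa3, chr7:46715677-46715926, minus strand: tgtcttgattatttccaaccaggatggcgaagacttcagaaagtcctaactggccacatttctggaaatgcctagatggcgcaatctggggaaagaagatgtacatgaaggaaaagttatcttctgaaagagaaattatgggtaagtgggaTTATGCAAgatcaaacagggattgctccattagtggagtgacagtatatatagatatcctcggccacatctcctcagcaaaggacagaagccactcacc
Mmp3, chr9:7445572-7445821, plus strand: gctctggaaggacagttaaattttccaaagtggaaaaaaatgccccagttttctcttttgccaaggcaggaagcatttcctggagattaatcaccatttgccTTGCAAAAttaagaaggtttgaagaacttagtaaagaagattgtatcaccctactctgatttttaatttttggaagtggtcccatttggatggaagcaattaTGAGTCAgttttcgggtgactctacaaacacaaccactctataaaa

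Motifs of 4 inflammatory factors were searched on both strands of these windows. An AP-1 match (TGANTCA) lay in 6.87% of 27025 RefSeq promoters of this length, an NF-kB match (GGGNNTTCC) in 4.88%, a STAT match (TTCNNNGAA) in 7.18% and a C/EBP match (TTGCNNAA) in 9.55%. The *Chl1* window held 0 matches to any of them. *Saa3* and *Mmp3* are shown because they hold a match: *Saa3* held the C/EBP letters TTATGCAA beginning 99 bases before its start, and *Mmp3* held TTGCAAAA, beginning 148 bases before, and the AP-1 letters TGAGTCA, beginning 46 bases before. A match is a description of letters and not a binding site.

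Sequencing gave 51146169 unique molecular identifiers (UMIs, each standing for 1 captured transcript) over 7671 deposited PBS barcodes and 53517206 over 5709 CFA barcodes. The kept cells had a median of 7022 and 6510 UMIs, similar in both libraries. The hemoglobin limit removed 3178 PBS and 339 CFA barcodes. The libraries shared 10 deposited barcodes, 2 of them kept in both and 0 with *Chl1*. Levels below are *Chl1* UMIs per 1000000 UMIs (CPM) summed over all cells of a set, with exact Poisson intervals. Shares are the percentage of cells with a *Chl1* UMI, with exact Clopper-Pearson intervals. Ratios of levels have exact conditional binomial intervals, and ratios of shares have approximate intervals from a normal approximation on the log scale. All are 95% intervals that cover counting error only, and not the spread between mice.

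Over all kept cells, *Chl1* stood at 19.7 CPM in the PBS library (537 UMIs) and 40.7 CPM in the CFA library (1806 UMIs). Where those molecules lay differed between the libraries. In PBS joints, 73.7% of them were in Schwann-like cells and 1.30% in fibroblast-like cells. In CFA joints, 23.8% were in Schwann-like and 65.9% in fibroblast-like cells. The classes came from clusters made without *Chl1* among the genes used.

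**Figure D1:**
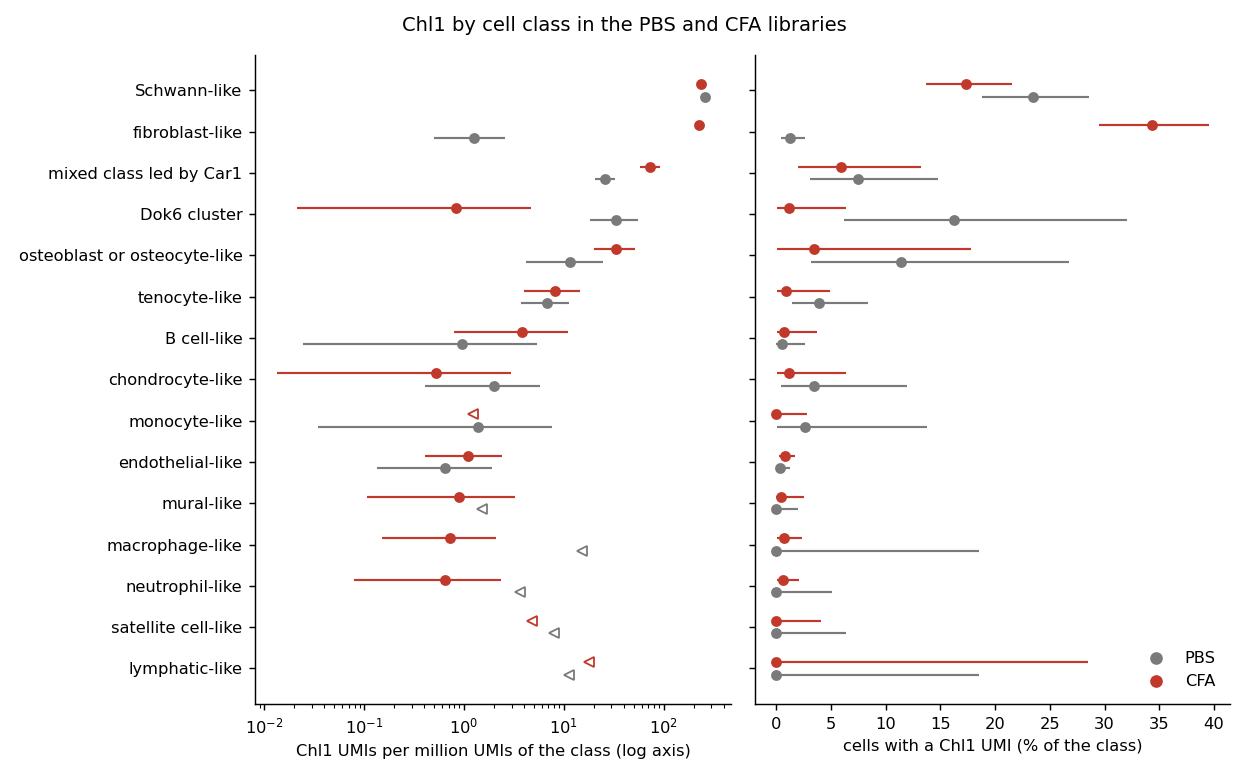
*Chl1* by cell class in the PBS and CFA libraries: CPM on a log axis with 95% Poisson intervals (left; open triangles mark the limit of 3 counts where none were seen) and the percentage of cells with a *Chl1* UMI (right). Fibroblast-like cells stand at 1.26 CPM in PBS and 224 CPM in CFA, while the Schwann-like class stands at 259 and 236 CPM.

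The fibroblast-like class joined 3 clusters, in which 7 or all 8 of the fibroblast markers, among them *Dcn*, *Pdgfra* and *Col3a1*, were detected. In PBS joints its 498 cells held 7 *Chl1* UMIs in 6 cells, or 1.26 CPM (interval 0.505 to 2.59). In CFA joints its 358 cells held 1190 UMIs in 123 cells, or 224 CPM (212 to 237). The share of cells with *Chl1* was thus 1.2% (0.443 to 2.60) against 34.4% (29.5 to 39.5), at median depths of 11120 and 12860 UMIs. The level was 178 times higher in the CFA library, with an interval of 86.3 to 445.

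Gated fibroblasts, which rest on no clustering, gave the same direction. Their level was 2.15 CPM in PBS (16 UMIs, interval 1.23 to 3.50) and 175 CPM in CFA (1131 UMIs, 165 to 185), a ratio of 81.2 (49.8 to 143). With each cell thinned to 1000 UMIs, *Chl1* was seen in 1 of 522 PBS cells (0.192%) and 39 of 396 CFA cells (9.85%). Unthinned, the shares were 1.72% and 29.8%. Among 4047 genes with enough counts in gated fibroblasts, 181 (4.47%) were at least 2-fold higher in CFA than in PBS, and 0 had a higher ratio than *Chl1*, which was chosen for this difference. The ratio fell to 30.4 with no hemoglobin limit, since 370 further PBS cells in the gate held 42 *Chl1* UMIs in 19 cells (14.7 CPM), and was 173 when the gate was applied to cells thinned to 2000 UMIs. At the threshold itself, 38 PBS and 37 CFA cells had exactly 3 molecules on at least 1 criterion, of which 0 and 3 held *Chl1*.

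Endothelial and immune cells gave the background. Endothelial-like cells stood at 0.649 CPM in PBS and 1.10 CPM in CFA, with *Chl1* in 0.358% and 0.779% of cells at median depths of 5613 and 4567 UMIs. Immune-like classes together stood at 0.714 CPM (0.0865 to 2.58) and 0.505 CPM (0.242 to 0.929). The level of PBS fibroblast-like cells overlapped both in its interval, so *Chl1* above background could not be read there. The interval of PBS gated fibroblasts (1.23 to 3.50) overlapped those of both in PBS, but lay above that of CFA immune-like cells. The PBS gated cells removed by the hemoglobin limit stood at 14.7 CPM (10.6 to 19.9, in 19 of 370 cells), above all of these. The CFA fibroblast level lay above each of these intervals.

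*Chl1* was unevenly spread over CFA fibroblasts. Of the 396 gated cells, 278 held no *Chl1* UMI, 30 held 1, 13 held 2, 21 held 3 to 5, 17 held 6 to 9, 19 held 10 to 19 and 18 held 20 or more. The highest cell held 103, the median of the positive cells was 4, and cells with 10 or more UMIs carried 77.8% of the molecules. In PBS, 515 of the 524 cells held none, and the highest held 6. High cells of the kind seen in CFA were thus not seen among the PBS gated fibroblasts.

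**Figure D2:**
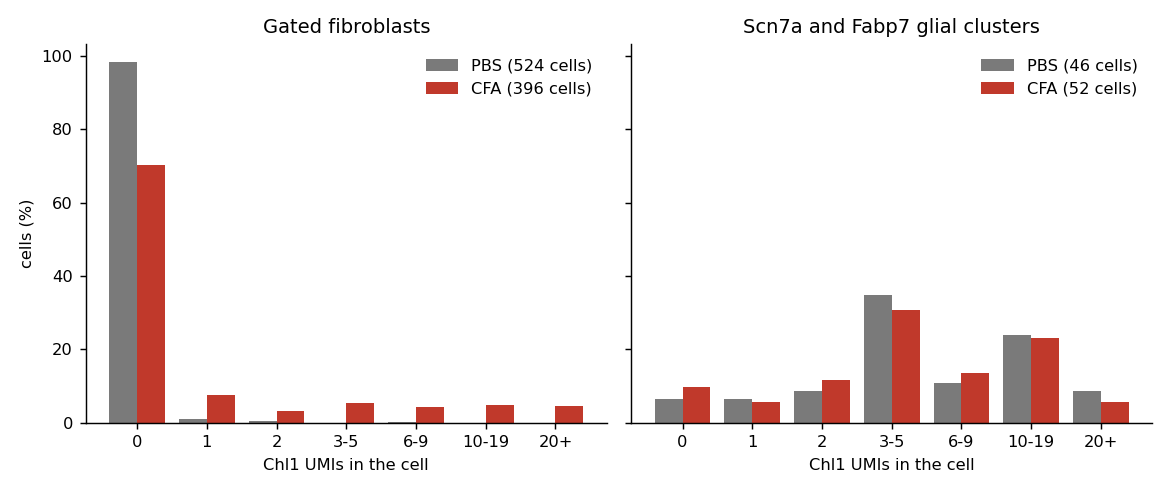
Percentage of cells by number of *Chl1* UMIs per cell, in gated fibroblasts and in the *Scn7a* and *Fabp7* glial clusters, for the PBS and CFA libraries. In gated fibroblasts 98.3% of PBS and 70.2% of CFA cells hold no UMI, while most glia hold several in both libraries.

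The share of positive fibroblasts was higher in deeper CFA cells, and the libraries differed at each depth. Bins by UMIs per cell, 4 of them, were set over all gated fibroblasts. In the lowest bin 0.806% of PBS and 9.43% of CFA cells held *Chl1*, and in the next 0.658% and 8.97%. In the upper bins the shares were 1.91% against 37.0%, and 4.40% against 53.2%. In CFA, cells in the upper bins thus held *Chl1* more often, and within each bin the CFA share was higher. The CFA level also differed between the bins, at 81.9, 35.3, 244 and 203 CPM. The PBS bins held 1, 1, 3 and 4 positive cells with overlapping intervals, so no change with depth can be read there.

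All 3 fibroblast-like clusters held *Chl1* in CFA. The cluster led by *Pi16*, *Mfap5* and *Cd248*, which carried 5 of the 6 adventitial markers, had 3 positive cells of 131 in PBS (2.28 CPM) and 84 of 164 in CFA (226 CPM, 210 to 243). A cluster led by *Apod*, *Smoc2* and *Inmt* had 1 of 203 cells in PBS (0.599 CPM) and 26 of 127 in CFA (290 CPM, 257 to 325). A cluster led by *Angptl1*, *Cilp* and *Sfrp1* had 2 of 164 (0.931 CPM) and 13 of 67 (159 CPM, 136 to 184.5). Positive cells were more frequent in the adventitial cluster, at 51.2% (43.3 to 59.1) of CFA cells against 20.5% and 19.4%, but its cells were also deeper than those of the *Apod* cluster, with a median of 17720 against 5714 UMIs, and the *Angptl1* cluster had 14760. Thinned to 1000 UMIs per cell, the shares were 14.6% (9.61 to 21.0) in the adventitial, 10.8% in the *Apod* and 5.97% in the *Angptl1* cluster. The summed level in CFA hardly differed between the adventitial and the other fibroblast-like clusters, with a ratio of 1.02 (0.904 to 1.15).

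A small cluster led by *Prg4*, the gene for the joint lubricant lubricin, carried all 6 lining fibroblast markers but under 3 markers of any main class. It held *Chl1* in 0 of 29 PBS cells, which by 3 counts allows a share of cells with a UMI of up to 10.3%, and in 2 of 6 CFA cells, with 31 and 25 UMIs.

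Glia held *Chl1* in both libraries. The Schwann-like class, in which at least 6 of 8 markers such as *Sox10* and *Cdh19* were detected in each of its 4 clusters, stood at 259 CPM in PBS (307 cells, interval 234 to 286) and 236 CPM in CFA (375 cells, 215 to 260). The ratio was 0.912 (0.794 to 1.05), and its interval included 1. The share of positive cells was 23.5% and 17.3%, a ratio of 0.739 (0.548 to 0.997), and thinned to 1000 UMIs it was 13.7% and 8.01%, a ratio of 0.584 (0.372 to 0.916). These approximate intervals did not include 1, the first by little, unlike that of the summed level.

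Within the Schwann-like class the level differed strongly between subtypes. In 2 myelinating clusters, with *Mbp*, *Prx* and *Pllp*, *Chl1* stood at 47.3 CPM in PBS (36.0 to 61.1, in 29 of 261 cells) and 35.2 CPM in CFA (25.4 to 47.6, in 18 of 323 cells). In the 2 other clusters it stood at 1196 CPM in PBS (1071 to 1330, in 43 of 46 cells) and 621 CPM in CFA (561 to 686, in 47 of 52 cells). The ratio between these subtypes was 25.3 (19.1 to 33.9) in PBS and 17.6 (12.8 to 24.9) in CFA. The glia outside the myelinating clusters were thus the highest of the sets compared, in both libraries, ahead of CFA fibroblasts.

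Of those 2 clusters, the larger was led by *Cadm2*, *Cdh19*, *Grik2* and *Scn7a* and carried the nonmyelinating markers *Scn7a*, *Cadm2* and *Matn2*, and *Chl1* was among its 10 leading genes although left out of the clustering. It stood at 1243 CPM in PBS (43 cells, interval 1107 to 1390) and 1022 CPM in CFA (36 cells, 905 to 1149), intervals that overlapped. The smaller was led by *Fabp7*, which encodes a fatty acid binding protein of immature and satellite glia, and carried *Kcnj10*, *Slc1a3* and *Ptprz1*. It stood at 878 CPM in 3 PBS cells and 309 CPM in 16 CFA cells. Summed over both, the CFA to PBS ratio was 0.520 (0.448 to 0.603), and the *Fabp7* cells made up 3 of 46 cells in PBS and 16 of 52 in CFA. Within clusters, the ratio over the whole Schwann-like class was 0.744.

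Other classes held little *Chl1*, most of it in few cells. Tenocyte-like cells stood at 6.75 CPM in PBS (14 UMIs in 6 of 153 cells) and 8.08 CPM in CFA, where all 11 UMIs were in 1 cell. Chondrocyte-like cells held 3 and 1 UMIs, mural-like cells 0 and 2, and satellite cells of muscle, lymphatic and perineurial cells 0 in both libraries. A cluster led by *Dok6*, *Gpc5* and *Col25a1* stood at 33.2 CPM in PBS (14 UMIs in 6 of 37 cells) and 0.836 CPM in CFA (1 UMI in 85 cells), so it was higher in PBS. A mixed cluster led by *Car1* and *Obp1a* stood at 25.9 CPM (77 UMIs in 7 cells) and 73.4 CPM (76 UMIs in 5 cells), and osteoblast-like cells at 11.5 CPM (4 of 35 cells) and 33.1 CPM (1 of 29 cells). In PBS the order of levels was therefore nonmyelinating and *Fabp7* glia, then myelinating glia and the *Dok6* cluster, whose intervals overlapped, then the mixed cluster, osteoblast-like and tenocyte-like cells. The interval of the *Dok6* cluster (18.2 to 55.7) also overlapped that of the mixed cluster (20.4 to 32.3), and the osteoblast-like interval (4.21 to 24.95) those of the mixed cluster and the tenocyte-like cells (3.69 to 11.3). In CFA it was the same glia, then fibroblast-like cells, then the mixed cluster, then myelinating glia and osteoblast-like cells, whose intervals overlapped, with tenocyte-like cells below.

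The other L1 family genes had patterns of their own. *L1cam* stood at 121 CPM in PBS and 64.2 CPM in CFA in the nonmyelinating and *Fabp7* glia, and at 0.539 and 1.32 CPM in fibroblast-like cells. *Nrcam* stood at 168 and 243 CPM in myelinating clusters and at 1.62 and 1.13 CPM in fibroblast-like cells. *Nfasc*, whose glial form joins paranodal loops of myelin to the axon, stood at 460 and 591 CPM in myelinating clusters and at 35.5 and 32.1 CPM in the other glia. *Nfasc* was also higher in fibroblast-like cells of CFA (65.0 CPM, 58.3 to 72.2) than of PBS (18.1 CPM, 14.8 to 22.0). In the adventitial cluster it stood at 8.56 CPM in PBS and 60.1 CPM in CFA. *L1cam* and *Nrcam* stayed under 2 CPM in fibroblast-like cells of both libraries.

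Across 27 points, each a named class with at least 30 cells in 1 library, the levels of 8884 genes on a log2(CPM + 10) scale were correlated with those of *Chl1*. The 5 most alike were *Adgrb3* (Pearson r 0.87), *Kcnk5* (0.83), *Stk32a* (0.82), *Lpin1* (0.80) and *Nfasc* (0.80). The points share their library and its background, so these values are descriptive. The classes also join all Schwann-like cells. In PBS, *Nfasc* (460 against 35.5 CPM), *Lpin1* (69.0 against 28.4) and *Kcnk5* (53.8 against 28.4) were higher in myelinating than in the other glia. There *Chl1*, *Adgrb3* and *Stk32a* were lower in the myelinating clusters. *Adgrb3*, an adhesion receptor that binds C1q-like proteins at synapses, stood at 5.21 CPM in PBS and 60.3 CPM in CFA fibroblast-like cells, and at 592.5 and 1865 CPM in the nonmyelinating and *Fabp7* glia. It was the only gene of the 5 that was also among the 5 most alike over CFA classes alone and over clusters, and with a pseudocount of 1 CPM.

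Within the CFA library, the 118 gated fibroblasts with a *Chl1* UMI were set against the 278 without one. All are cells of 1 library, and the comparison describes them with no test. Cells with *Chl1* had a median of 22000 UMIs against 11670, and came more often from the adventitial cluster (83 of 118 against 80 of 278). Depth and cluster thus moved with every value that follows, their part in it was not tested, and the ratio taken within the 3 fibroblast-like clusters, or in the adventitial cluster alone, is given for many of the genes named. Of 4005 genes with at least 50 CPM in 1 set and 10 UMIs in each, 96 (2.4%) were at least 2-fold higher and 161 (4.02%) at least 2-fold lower in cells with *Chl1*. At 1.5-fold, 246 (6.14%) were higher and 346 (8.64%) lower, and the median ratio of all genes was 0.974. Within clusters, 177 (4.42%) and 255 (6.37%) passed 1.5-fold. Within the 4 bins of depth set over all gated fibroblasts, 81 of the 4005 genes were at least 2-fold higher and 142 at least 2-fold lower.

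**Figure D3:**
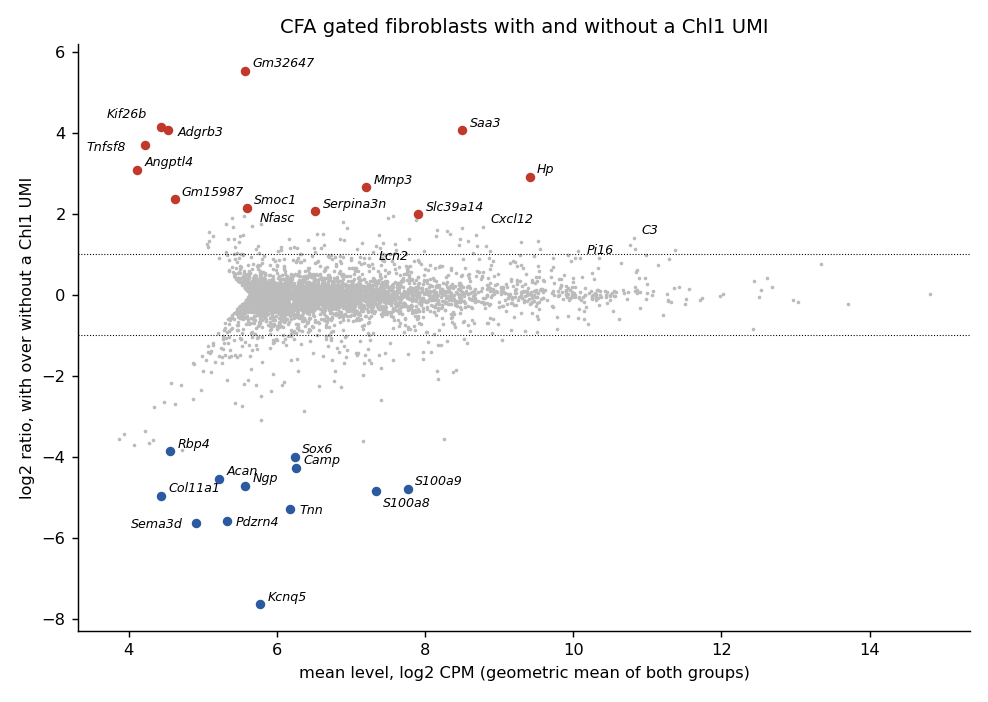
Ratio of CPM in CFA gated fibroblasts with a *Chl1* UMI (118 cells) to those without (278 cells), against the geometric mean of both levels in CPM, both on log2 axes, each point 1 of 4005 genes, with the 12 highest in red, the 12 lowest in blue and dotted lines at 2-fold. *Saa3* (16.7 times) and *Hp* (7.57 times) lie among the higher genes, and *Kcnq5* (0.00501 times) is lowest.

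The 12 genes highest in cells with *Chl1* were headed by *Gm32647*, *Kif26b* and *Adgrb3*, each held by few cells, and by *Saa3*. *Saa3* stood at 0.269 CPM in PBS gated fibroblasts, 88.7 CPM in CFA cells without *Chl1* and 1480 CPM in those with it. That is a ratio of 16.7 (15.0 to 18.7), and of 6.40 in the adventitial cluster alone. *Hp*, the gene for the hemoglobin-binding plasma protein haptoglobin, stood at 13.1, 248 and 1877 CPM (ratio 7.57, and 2.40 in the adventitial cluster). *Serpina3n*, a serine protease inhibitor, stood at 18.7, 44.9 and 187 CPM (ratio 4.17, adventitial 2.87), and *Slc39a14*, the zinc and iron importer ZIP14, at 40.0, 121 and 480 CPM (3.98, adventitial 3.49). *Mmp3* stood at 67.3, 58.8 and 370 CPM (6.30, adventitial 5.79). *Angptl4*, an inhibitor of lipoprotein lipase, stood at 14.4, 5.93 and 50.7 CPM (8.54, adventitial 3.05).

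For several of these genes a few cells held much of the sum. Of the *Mmp3* UMIs in cells with *Chl1*, 43.2% were in 1 cell, and without the highest cell of each set its ratio was 4.32, or 4.86 in the adventitial cluster. For *Hp*, 24.4% were in 1 cell, which also held 61 UMIs of the adipocyte gene *Adipoq*, and without the highest cells its ratio was 15.1, or 7.27 in the adventitial cluster. Of the *Saa3* UMIs in cells without *Chl1*, 81.1% were in 1 cell, and the ratio was 59.3 without the highest cells, or 58.2 in the adventitial cluster. *Slc39a14* was held by 85.6% of the cells with *Chl1*, with at most 5.96% of its UMIs in any of them.

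The other genes among the 12 highest were *Gm32647* (46.4), *Kif26b* (17.6), *Adgrb3* (16.7), *Tnfsf8* (13), *Gm15987* (5.14) and *Smoc1* (4.41). Within clusters their ratios were 26.8, 9.71, 10.2, 7.47, 2.58 and 4.14, and in the adventitial cluster alone 46.2, 10.5, 12.9, 3.05, 2.54 and 2.52. *Gm32647* and *Gm15987* are unnamed transcripts, *Kif26b* encodes a kinesin-like protein, *Tnfsf8* the CD30 ligand and *Smoc1* a calcium-binding matrix protein. *Kif26b* was held by 7 of the 118 cells, *Adgrb3* by 14 and *Gm32647* by 20, so these ratios rest on few cells. Of the 12 highest genes 7 had a promoter in the RefSeq table: 3 held the C/EBP letters, 1 the AP-1, 1 the STAT and 0 the NF-kB letters. Over the promoters of 3171 genes tested, the shares were 7.29%, 4.26%, 5.96% and 6.69%, and with so few promoters no difference from them can be read.

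Acute phase and innate genes were higher in cells with *Chl1*. Of the 20 on this list 16 passed the filter, and all 16 were at least 1.5-fold higher in cells with *Chl1*, against 6.14% of all genes, with a median ratio of 2.83 against 0.974. Within clusters 12 of the 16 were, against 4.42%, with a median of 1.91. *C3*, the central complement component, stood at 231 CPM in PBS, 1117 CPM in CFA cells without and 2950 CPM in CFA cells with *Chl1* (ratio 2.64, but 1.51 within clusters and 1.31 in the adventitial cluster). The chemokine genes *Cxcl5* (3.13), *Cxcl12* (3.20), *Ccl7* (3.72) and *Ccl2* (3.39) and the complement gene *Cfb* (3.02) were likewise higher. In the adventitial cluster alone *Cxcl12* (1.86) and *Cfb* (1.83) were higher by over 1.5-fold, while *Cxcl5* (1.31), *Ccl7* (1.38) and *Ccl2* (1.498) were not. Within clusters *Cxcl5* had 1.32, *Cxcl12* 2.13, *Ccl7* 2.12, *Ccl2* 2.77 and *Cfb* 1.70. Within the bins of depth these had 1.86, 2.965, 2.45, 2.27 and 2.41. *Saa1*, *Saa2*, *Lif* and *Orm1* were too low for the filter, with at most 16.6 CPM in either set.

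**Figure D4:**
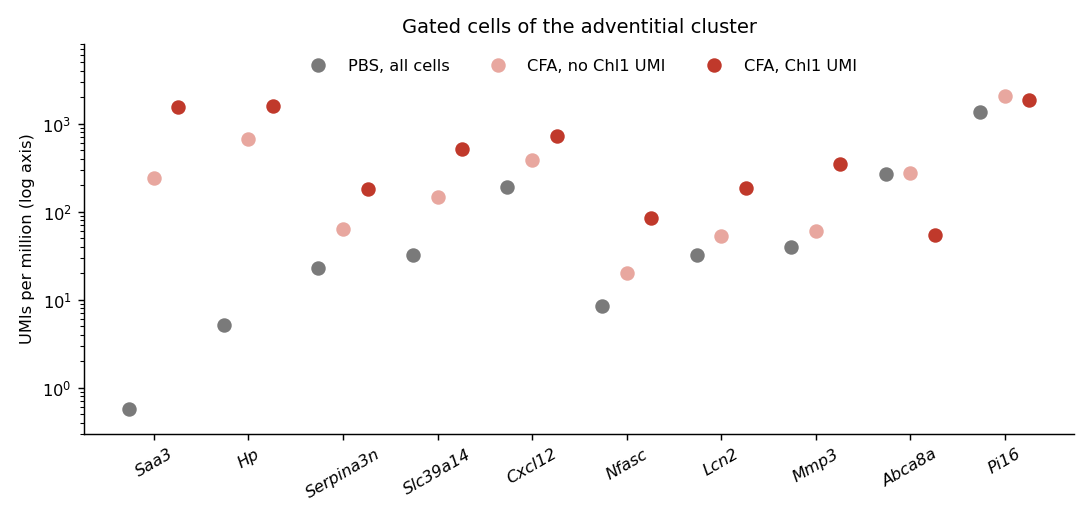
CPM of 10 genes in the adventitial cluster on a log axis: PBS cells (131), CFA cells without a *Chl1* UMI (80) and CFA cells with one (83), each point the sum over 1 set. *Saa3* stands at 0.571 CPM in PBS and at 240 and 1536 CPM in the CFA sets, while *Pi16* stands at 2058 and 1834 CPM in the latter.

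The interferon-gamma response list was higher by less. Of 19 genes that passed, 10 were at least 1.5-fold higher and 1 lower, against 6.14% and 8.64% of all genes. Their median ratio was 1.65. Within clusters 3 were higher and 0 lower, against 4.42% and 6.37%, and the median was 1.19. *Iigp1*, an immunity-related GTPase, stood at 110 CPM in PBS, 730.5 CPM in CFA without and 1556 CPM in CFA with *Chl1* (ratio 2.13). *Cxcl9* (2.33), *Gbp3* (2.14) and *Psmb8* (2.02) were likewise higher, and *Cxcl10* was lower (0.646). Within clusters *Iigp1* had 1.59, *Gbp3* 1.64, *Psmb8* 1.48 and *Cxcl9* 1.17, and in the adventitial cluster alone 1.61, 1.63, 1.31 and 0.962. There *Cxcl10* had 0.723, but within clusters 0.938.

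Of 10 adventitial genes that passed, 5 were at least 1.5-fold higher with *Chl1* and 0 lower, against 6.14% and 8.64% of all genes. Within clusters, however, 0 were higher and 2 lower, against 4.42% and 6.37%. *Pi16* had a ratio of 1.89 over all gated cells and 0.891 in the adventitial cluster, and *Cd248* 2.01 and 0.993. *Ly6a*, which encodes the surface protein SCA-1, had 2.14 and 1.28. Of 6 sublining genes 1 was higher (*Mfap4*, 1.61) and 2 lower (*Col15a1*, 0.330, and *Smoc2*, 0.646), but in the adventitial cluster alone these had 1.37, 0.840 and 1.40, and within clusters *Mfap4* had 1.12. Of 2 lining genes 0 passed 1.5-fold in either direction over all gated cells, and 1 was higher within clusters (*Prg4*, 1.48 over all, 1.90 within clusters and 1.99 in the adventitial cluster).

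Matrix genes went both ways. Of 18 collagens and matrix genes 5 were at least 1.5-fold higher and 5 lower, against 6.14% and 8.64% of all genes. *Lox*, which cross-links collagen, had a ratio of 2.16 and *Col3a1* of 1.69, while *Col12a1* had 0.334, *Tnc* 0.377 and *Eln* 0.453. Within clusters 4 were higher and 1 lower, and in the adventitial cluster alone the ratios of *Col12a1*, *Tnc* and *Eln* were 1.66, 1.12 and 1.22. Of 9 small leucine-rich proteoglycans 0 were higher and 4 lower, with *Fmod* at 1047 CPM without and 89.3 CPM with *Chl1* (0.0853). Of 6 tendon and cartilage genes 0 were higher and 4 lower, with *Acan* at 0.0429 and *Comp* at 0.270. In the adventitial cluster alone *Fmod* and *Comp* had ratios of 2.10 and 2.33, while within clusters they had 0.415 and 0.498. *Acan* had 2.25 within clusters, so the direction of these genes depended on the cells compared. In the adventitial cluster *Acan* stood at 2.415 CPM without and 1.015 CPM with *Chl1*. Its ratio there, 0.420, had an interval of 0.0351 to 3.67, so no direction can be read. Of the CFA gated cells, 26 clustered with chondrocytes and 32 with tenocytes, of which 0 and 1 held *Chl1*.

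Of secreted Wnt and TGF-beta antagonists, 10 passed, 4 were at least 1.5-fold higher and 1 lower, against 6.14% and 8.64% of all genes. Within clusters also 4 were higher and 1 lower, against 4.42% and 6.37%. *Sfrp1* stood at 246 CPM in PBS, 193 CPM in CFA without and 542 CPM in CFA with *Chl1* (2.81), and *Dkk2* (2.49) and *Sfrp4* (2.13) were also higher. *Chrdl1*, a BMP antagonist, was lower (0.380). In the adventitial cluster alone *Sfrp1* had 2.11, *Dkk2* 4.49, *Sfrp4* 1.36 and *Chrdl1* 0.488.

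Genes of the nerve environment were mostly not higher, which was so of most genes tested. Over all tested genes, 6.14% were at least 1.5-fold higher and 8.64% lower, so 0 higher in short lists is near that share. Of 9 neurotrophic and axon guidance genes that passed, 0 were at least 1.5-fold higher and 4 lower, among them the guidance genes *Sema3d* (0.0202), *Epha3* (0.211) and *Robo1* (0.325). Of 19 receptors, linkers and sheddases of the L1 family 0 were higher and 4 lower: *Sema3d*, *Nrp2* (0.219), *Plxna2* (0.412) and *Sema3e* (0.463). Several of these ratios were nearer to 1 in the adventitial cluster alone, where *Epha3* had 0.905, *Nrp2* 0.735, *Sema3e* 0.758 and *Sema3d* 0.172, while *Robo1* had 0.475 and *Plxna2* 0.411. The sheddase genes *Adam10* (1.26) and *Adam17* (1.41) and the ankyrin gene *Ank2* (0.752) lay within 1.5-fold.

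*Nfasc* was the family member that accompanied *Chl1* in fibroblasts. It stood at 14.1 CPM in PBS gated fibroblasts, 28.1 CPM in CFA cells without *Chl1* and 92.0 CPM in those with it, a ratio of 3.27 (2.60 to 4.15). The ratio was 3.32 within clusters and 4.26 in the adventitial cluster alone. *L1cam* held 1 UMI and *Nrcam* 3 in all cells with *Chl1*.

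Inside the adventitial cluster of CFA, several genes differed by the number of *Chl1* UMIs. In its 80 gated cells with none, 30 with 1 to 2, 28 with 3 to 9 and 25 with 10 or more, *Slc39a14* stood at 146, 219, 511 and 806 CPM. *Serpina3n* stood at 62.8, 78.3, 186 and 280 CPM, and *Hp* at 667, 1214, 1687 and 1920 CPM. These were higher in each bin than in the one before, also without the highest cell of each bin, when *Hp* stood at 191, 712, 1012 and 1576 CPM. *Saa3* was not ordered in this way, at 240, 1310, 626 and 2650 CPM, and without the highest cells at 15.8, 475, 331 and 794 CPM. *Mmp3* was highest in the last bin, at 60.4, 54.6, 95.9 and 899 CPM, where 1 cell held 413 of its 591 UMIs. Without the highest cells it stood at 29.6, 41.3, 74.4 and 292 CPM. These single-cell values were added after seeing the data. *Lcn2*, the gene for the iron-sequestering protein lipocalin-2, stood at 52.3, 112, 119.5 and 327 CPM. *Nfasc* stood at 20.1, 66.5, 99.1 and 92.8 CPM. The adventitial marker *Pi16* hardly moved, at 2058, 1856, 1753 and 1889 CPM. Median depth was 13070, 22890, 23520 and 23830 UMIs, lower only in the bin with no *Chl1*.

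**Figure D5:**
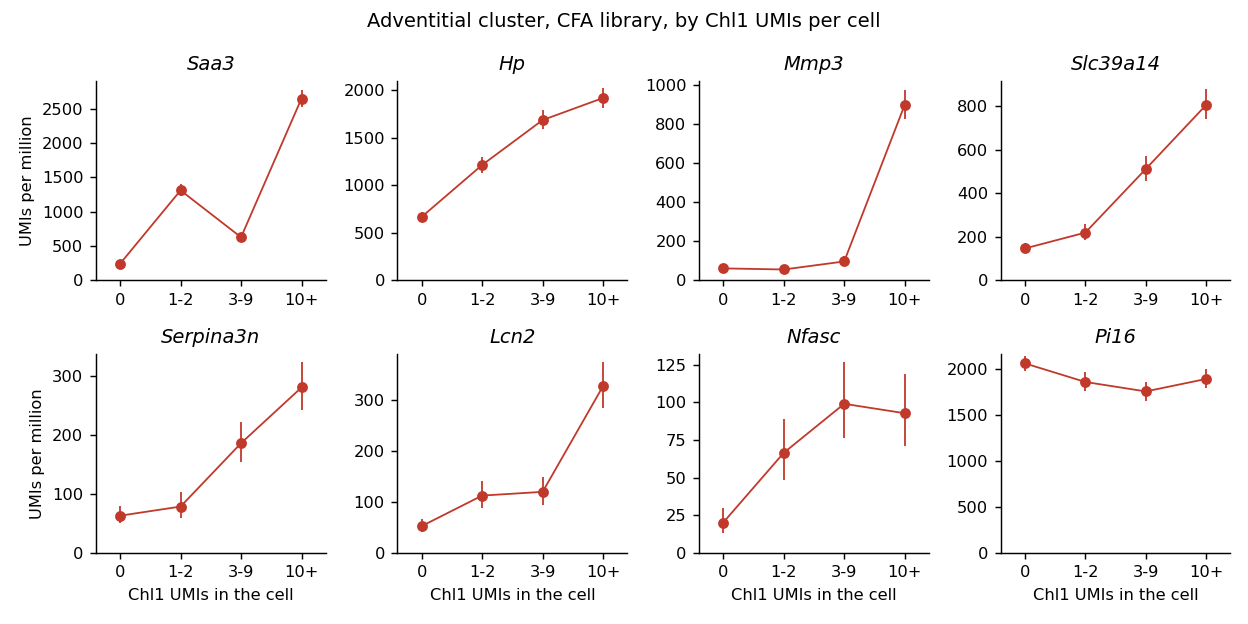
CPM of 8 genes, on a linear axis of its own for each, in adventitial-cluster CFA cells binned by *Chl1* UMIs per cell (0, 1 to 2, 3 to 9, 10 or more), with 95% Poisson intervals. *Slc39a14* goes from 146 to 806 CPM across the bins, and *Pi16* stays between 1753 and 2058 CPM.

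The genes lowest in cells with *Chl1* were of several kinds. *Kcnq5*, a potassium channel gene, had a ratio of 0.00501, followed by *Sema3d*, *Pdzrn4* (0.0209), *Tnn* (0.0255), *Col11a1* (0.0321), *Acan*, *Sox6* (0.0624) and *Rbp4* (0.0686). *Kcnq5* stood at 772.5 CPM in all gated cells without *Chl1*, but at 6.44 CPM in those of the adventitial cluster. Its ratio there was 0.630, with an interval of 0.206 to 1.93 that included 1. In that cluster the cartilage factor gene *Sox6* had a ratio of 0.182 and the retinol carrier gene *Rbp4* of 0.0900, both still lower, whereas *Tnn* had 3.28. The remaining 4, *S100a8*, *S100a9*, *Ngp* and *Camp*, are neutrophil genes. For each of these 4, between 46.3% and 74.9% of the UMIs in cells without *Chl1* lay in 1 cell. Without the highest cell of each set they were still lower, with ratios of 0.0602 for *S100a8*, 0.068 for *S100a9*, 0.0981 for *Ngp* and 0.192 for *Camp*.

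Summed markers of glia, immune, mural and endothelial cells were not higher in cells with *Chl1*. Beside the counts that follow, 6.14% of all genes were at least 1.5-fold higher and 8.64% lower. Of 12 glial genes, 2 passed and 0 differed by 1.5-fold, and their summed level was 265 CPM in cells with and 306 CPM in cells without *Chl1*. At least 1 glial UMI was in 50.8% (41.5 to 60.2) and 54.0% (47.9 to 59.9) of cells, and *Gfap* stood at 0 in both. The 10 immune markers summed to 791 CPM with and 2956 CPM without, with 1 of 6 higher (*Cd74*, 1.63) and 4 lower, the 8 mural markers to 217 and 574 CPM with 0 higher and 3 lower, and the 7 endothelial markers to 40.6 and 70.6 CPM with 0 that passed. Of 2 perineurial and endoneurial genes that passed, both were lower (*Abca8a*, 0.310, and *Abca9*, 0.516), and in the adventitial cluster too *Abca8a* was lower. Doublet scores had a median of 0.0364 with and 0.0282 without *Chl1*, and 9 and 15 cells were in the top 5% of scores. Of 12 immediate early genes, which respond to dissociation, 0 differed by 1.5-fold, and of cell cycle genes 1 passed and was lower (*Hmgb2*, 0.611, but 1.45 within clusters, 1.92 in the adventitial cluster and 1.07 with the stricter gate of 10 and 10 UMIs).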

How the data were processed

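Counts of UMIs per gene and barcode were deposited by the authors as 2 filtered matrices, made with Cell Ranger 7.0.1 on mm10 per the submitters' processing notes; whether intronic reads were counted is not given in the sources used here. From these counts, barcodes were filtered as stated, and the 2 libraries were normalized, integrated and clustered with Seurat 5.3.0 in R 4.3.3 (SCTransform, 200 principal components and resolution 1.5 as in the study's methods, and 3000 integration genes) with *Chl1* left out. The 36 clusters were named from marker lists (a marker counts as detected in at least 25% of cells and at least 2-fold above the other clusters; at least 3 per name).

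Doublet scores came from scrublet in scanpy 1.11.5, which called 1 PBS and 2 CFA barcodes, so no cell was removed and scores are given instead. Sums, intervals and ratios used Python 3.11.15 with scipy 1.17.1. The ratio calculation was tested on simulated data for the with and without comparison, where 196 of 196 detectable changed genes were recovered with 0 false calls among 3812 genes. The simulated cells of a set shared the same profile, and all changes were set well past 2-fold. This checks the calculation only and gives no rate of false calls for real cells, which differ from each other. The members, the 19 gene lists and the rules were chosen with earlier results of these data known. Named were *Chl1*, the 12 highest and 12 lowest genes of the with and without comparison, up to 4 members past 1.5-fold per list and direction, the L1 family and the 5 genes most like *Chl1*; other list members and single genes such as *Adam10*, *Adam17*, *Ank2* and *C3* were named after their values were seen. Alternatives covered filters, gate, thinning, doublet scores, expression filters and cluster make-up. Promoters came from the RefSeq table (GRCm38.p6). Some genes of the lists are not reported here, and no sample columns of other series were present (0).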

Additional observations from a re-analysis of the deposited data

Results flagged for a closer look

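*Chl1* was also counted in barcodes left out of the comparisons. In CFA barcodes with under 500 genes it stood at 3.06 CPM (10 UMIs, interval 1.47 to 5.62), against 0.973 CPM (0.391 to 2.0) in the PBS barcodes of that kind. In CFA barcodes over the mitochondrial limit it stood at 13.3 CPM (25 UMIs, 8.62 to 19.7), against 2.06 CPM (0.25 to 7.45) in PBS. The CFA to PBS ratio of 0.520 in the nonmyelinating and *Fabp7* glia ran opposite to the ratio of 81.2 in gated fibroblasts, and the difference was not tested.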

How the results depend on the processing

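The level of *Chl1* stayed higher in CFA than in PBS fibroblasts under every alternative run. For fibroblast-like cells the ratio of 178 was 70.9 with each cell classed on its own, 81.3 with a hemoglobin limit of 5% and 46.2 with none. For gated fibroblasts the ratio of 81.2 was 38.7 and 30.4 under those limits, 173 with the gate applied after thinning to 2000 UMIs, and 171 in gated cells of the fibroblast-like clusters only (a setting added once the data had been seen). The thinned share ratio of 51.4 ranged from 12.7 to 70.9. For Schwann-like cells the ratio of 0.912 was 0.625 as a mean over cells and 0.744 within clusters, the latter also added later. The cause of these moves was not tested, except that the hemoglobin limits change which PBS cells are counted.

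The count of genes at least 2-fold higher in cells with *Chl1*, 96, was 51 within clusters, 152 with a filter of 20 CPM, 61 with a gate of 10 and 10 UMIs and 63 in the adventitial cluster alone, the last also added later. The count of genes at least 2-fold lower, 161, was 92 within clusters and 315 at 20 CPM, where more genes are tested. Within the bins of depth the counts were 81 higher and 142 lower, and the 12 highest and 12 lowest genes all kept their direction. Of the 5 genes most like *Chl1*, 2 were kept with a pseudocount of 1 CPM, 1 over CFA classes alone and 2 over clusters, the last also added later. Of 792 values for 72 named genes, 480 stayed close, 280 moved and 32 turned direction, in 21 genes. Within clusters the ratio turned for *Acan* (2.25), *Cd248* (0.989), *Pi16* (0.915), *Sox9* (1.88), *Acta2* (1.47), *Fbn1* (0.888), *Col12a1* (1.67), *Col6a3* (1.17), *Ncam1* (1.60) and *Hmgb2* (1.45). In the adventitial cluster alone it turned for *Tnn* (3.28), *Ngp* (1.10), *Cd248* (0.993), *Pi16* (0.891), *Smoc2* (1.40), *Fmod* (2.10), *Comp* (2.33), *Sox9* (2.61), *Acta2* (1.999), *Cxcl9* (0.962), *Fbn1* (0.851), *Col12a1* (1.66), *Tnc* (1.12), *Eln* (1.22), *Col6a3* (1.17), *Prelp* (1.16), *Lum* (1.001), *Ncam1* (1.42) and *Hmgb2* (1.92). It also turned for *Mfap4* with at least 2 *Chl1* UMIs (0.996), for *Hmgb2* with the stricter gate (1.07) and for *Ngp* without the highest doublet scores (1.08).

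No paired analysis was possible because each group is 1 library. The split by *Chl1* was not run in PBS, where 9 gated cells held it, under the minimum of 20. With 1 library per group the spread between mice is unknown. A cell without a *Chl1* UMI is one in which none was captured, which depends on its depth.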

Other observations

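Single cells outside the fibroblast and Schwann-like classes carried many *Chl1* UMIs. A CFA barcode with 1383 *Calca*, 474 *Tac1* and 326 *Prph* UMIs, genes of peptidergic sensory neurons, held 39 *Chl1* UMIs of 112787. In PBS, barcodes with 2288 and 6953 UMIs of *Bpifa1*, a secreted product of airway and nasal epithelium, held 45 and 14 *Chl1* UMIs. Of the cells that epithelial markers named one by one, 6 of 11 in PBS and 0 of 4 in CFA held *Chl1*.

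Of the 4 CFA cells that adipocyte markers named, 3 held *Chl1*, with 20, 19 and 15 UMIs beside 61, 35 and 38 of *Adipoq*. They also held 1186, 106 and 506 UMIs of *Hp* and 411, 79 and 11 of *Saa3*. The only such PBS cell held none. One PBS cell of an unnamed cluster led by *Nebl* and *Sema3g* held 15. These cells were chosen for their *Chl1* counts, and so few cells give no share for their types.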
